A study of Homo sapiens with 19 samples.

Results

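The genes described here are 9 that mark the surface of gut epithelium: VIL1, CDH17, LGALS4, PHGR1, TSPAN8, ANXA10, CEACAM5, CEACAM6 and PSCA. They were read in 19 single-cell RNA libraries of human liver organoids, balls of tissue grown from the human pluripotent stem cell line W01 (WiCell), wild-type in every group. All 9 were matched by Ensembl identifier among the 32703 identifiers present in every count matrix. The genes were chosen by their levels in these libraries and by their detection together with AFP in single cells, so both are given below as a description. Where edgeR calls of the 9 genes are counted, nothing is read from the count. No tissue or gut organoid is among the samples, so "gut epithelial" names what the genes are known for and not the identity of the cells.

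The libraries fall into 9 groups. Organoids on ultra-low attachment (ULA) plates were untreated and were taken at day 21 (n = 3) or day 34 (n = 2). The other 14 libraries come from organoids cultured on an orbital shaker (OS) and taken at day 25, with 2 libraries in each of 7 groups. These are the control for TGFB1, TGFB1 at 10 ng/ml, the control for PA, PA at 500 µM, an untreated group, the control for OA, and OA at 500 µM. TGFB1 and PA were given for 5 days after 20 days of culture. The sources used here do not spell out PA or OA, do not say what the controls received, and do not give the length of the OA treatment. All groups derive from 1 cell line. The labels do not say whether libraries of a group came from separate cultures, so p-values measure only the spread between these libraries, which may be technical. Day 34 ULA and day 25 OS organoids had an extra wash and 10 minutes more of trypsin than day 21 ULA organoids, so digestion and day cannot be told apart in the ULA comparison.

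As background, the absorptive surface of the gut is a single layer of epithelial cells whose upper face carries microvilli. Villin (VIL1) bundles the actin inside the microvilli. Liver-intestine cadherin (CDH17) holds neighbouring cells together, and CEACAM5 and CEACAM6 are lipid-anchored adhesion proteins of the same immunoglobulin family. Galectin-4 (LGALS4) binds sugars at the brush border, and TSPAN8 is a tetraspanin that organises other membrane proteins. ANXA10 is an annexin best known from the stomach lining, PSCA is a small lipid-anchored protein of the stomach surface and of the prostate, and PHGR1 is a short protein of gut epithelium whose role is not well understood. AFP is the serum protein of fetal liver, yolk sac and, to a lesser extent, fetal gut. Gut and liver epithelium both derive from embryonic endoderm.

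Positions are those of GRCh38 (GENCODE 44), with those of CDH17 and PSCA given further on. VIL1 spans chr2:218419121-218453295, ANXA10 spans chr4:168092537-168187736 and PHGR1 spans chr15:40351033-40356434, all on the plus strand. TSPAN8 spans chr12:71125085-71441898 on the minus strand. LGALS4 (chr19:38801671-38812945, minus strand), CEACAM5 (chr19:41708585-41730433, plus strand) and CEACAM6 (chr19:41750977-41772211, plus strand) share chromosome 19, where the end of CEACAM5 and the start of CEACAM6 are 20544 bases apart. CEACAM5 and CEACAM6 also overlap an annotated gene on their own strand (ENSG00000267881), and they are close paralogs, so reads may have been split between them and their values are uncertain to that extent. TSPAN8 overlaps LGR5, VIL1 overlaps USP37 and PSCA overlaps JRK, each on the opposite strand. The sources used here do not state whether counting used the strand.

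Promoter windows were found for 5 of the genes (ANXA10, TSPAN8, LGALS4, CEACAM5 and CEACAM6) in a RefSeq table of GRCh38.p14. The levels of these 5 genes moved together across the libraries, as did those of CDH17 and PHGR1. The CEACAM windows show how alike the neighbours are. Each is the 250 bases before a start site, 5′ to 3′ on the gene's strand. Capitals mark matches, searched on both strands, to motifs known for gut and liver factors. The motif of CDX factors was searched as TTTATNG, the half-site of HNF1 as GTTAAT and the motif of HNF4 as CAAAGTNCA. The motif of GATA factors was searched as TGATAAG, and the box found near many start sites as TATAAA. No 2 marked matches overlap.
ANXA10, chr4:168092287-168092536, plus strand: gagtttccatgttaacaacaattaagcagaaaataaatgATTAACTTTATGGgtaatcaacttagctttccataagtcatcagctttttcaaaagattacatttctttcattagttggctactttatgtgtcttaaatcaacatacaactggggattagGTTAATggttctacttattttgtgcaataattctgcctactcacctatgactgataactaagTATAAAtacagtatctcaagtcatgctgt
TSPAN8, chr12:71157810-71158059, minus strand: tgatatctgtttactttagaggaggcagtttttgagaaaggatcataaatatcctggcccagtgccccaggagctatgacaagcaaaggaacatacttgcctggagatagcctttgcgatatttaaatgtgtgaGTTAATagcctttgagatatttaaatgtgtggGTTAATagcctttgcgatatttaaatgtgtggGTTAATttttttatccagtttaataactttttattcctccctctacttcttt
LGALS4, chr19:38812946-38813195, minus strand: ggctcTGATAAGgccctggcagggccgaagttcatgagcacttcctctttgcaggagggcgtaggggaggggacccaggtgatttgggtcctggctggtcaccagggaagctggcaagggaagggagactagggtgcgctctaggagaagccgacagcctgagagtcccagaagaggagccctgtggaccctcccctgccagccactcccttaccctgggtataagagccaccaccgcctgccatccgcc
CEACAM5, chr19:41708376-41708625, plus strand: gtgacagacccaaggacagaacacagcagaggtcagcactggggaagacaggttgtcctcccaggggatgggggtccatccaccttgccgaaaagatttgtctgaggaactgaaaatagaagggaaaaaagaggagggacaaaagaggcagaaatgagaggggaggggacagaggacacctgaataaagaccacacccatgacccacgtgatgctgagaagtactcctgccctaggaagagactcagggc
CEACAM6, chr19:41755280-41755529, plus strand: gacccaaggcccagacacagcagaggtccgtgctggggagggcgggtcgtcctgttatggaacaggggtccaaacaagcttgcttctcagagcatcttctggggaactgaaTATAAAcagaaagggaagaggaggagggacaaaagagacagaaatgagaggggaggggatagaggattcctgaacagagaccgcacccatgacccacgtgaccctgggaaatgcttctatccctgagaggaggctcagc

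The CEACAM5 and CEACAM6 windows were 74.6% identical over 260 aligned columns, whereas the other 5 pairs among CEACAM5, CEACAM6, LGALS4 and ANXA10 were between 44.6% and 52.4% identical. The TSPAN8 window held GTTAAT at 3 places, starting at -116, -84 and -52 from the start site. A second TSPAN8 window in the table, from a start site farther upstream, held none of the 5 motifs. The ANXA10 window held TTTATGG at -205, HNF1 half-sites at -211 and -91, and TATAAA at -29. One GATA match stood at -245 of LGALS4 and a TATAAA match at -139 of CEACAM6, and CEACAM5 held no match. Among 35116 windows of the same length, TTTATNG was present in 8.93%, GTTAAT in 6.23%, CAAAGTNCA in 0.94%, TGATAAG in 1.55% and TATAAA in 10.7%. A match describes the letters and is no measured binding.

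A cell was used when it had 500 genes or more and no more than 20% mitochondrial counts, which left 120240 cells, 3089 to 12427 per library, with 6880807 to 91184130 unique molecular identifiers (UMIs) per library and a median of 1310 to 14304.5 UMIs per cell. Levels below are UMIs summed over the kept cells of a library, as CPM, the gene's share of that library's UMIs on the usual scale that sets every library to the same total. They are not divided by gene length, so they are compared across libraries and not between genes. The shallowest libraries were replicate 1 of the PA control and replicate 1 of the TGFB1 control. Pairs of libraries shared 1 to 32 cell barcodes. The tissue label was checked against liver markers: ALB was detected in every library, but only at 0.0385 to 88.8 CPM outside OA and at 685 and 299.6 CPM in the OA libraries, while AFP reached 5855 CPM. In sums over all cells, fewer cells of a type and less RNA per cell cannot be told apart.

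**Figure D1:**
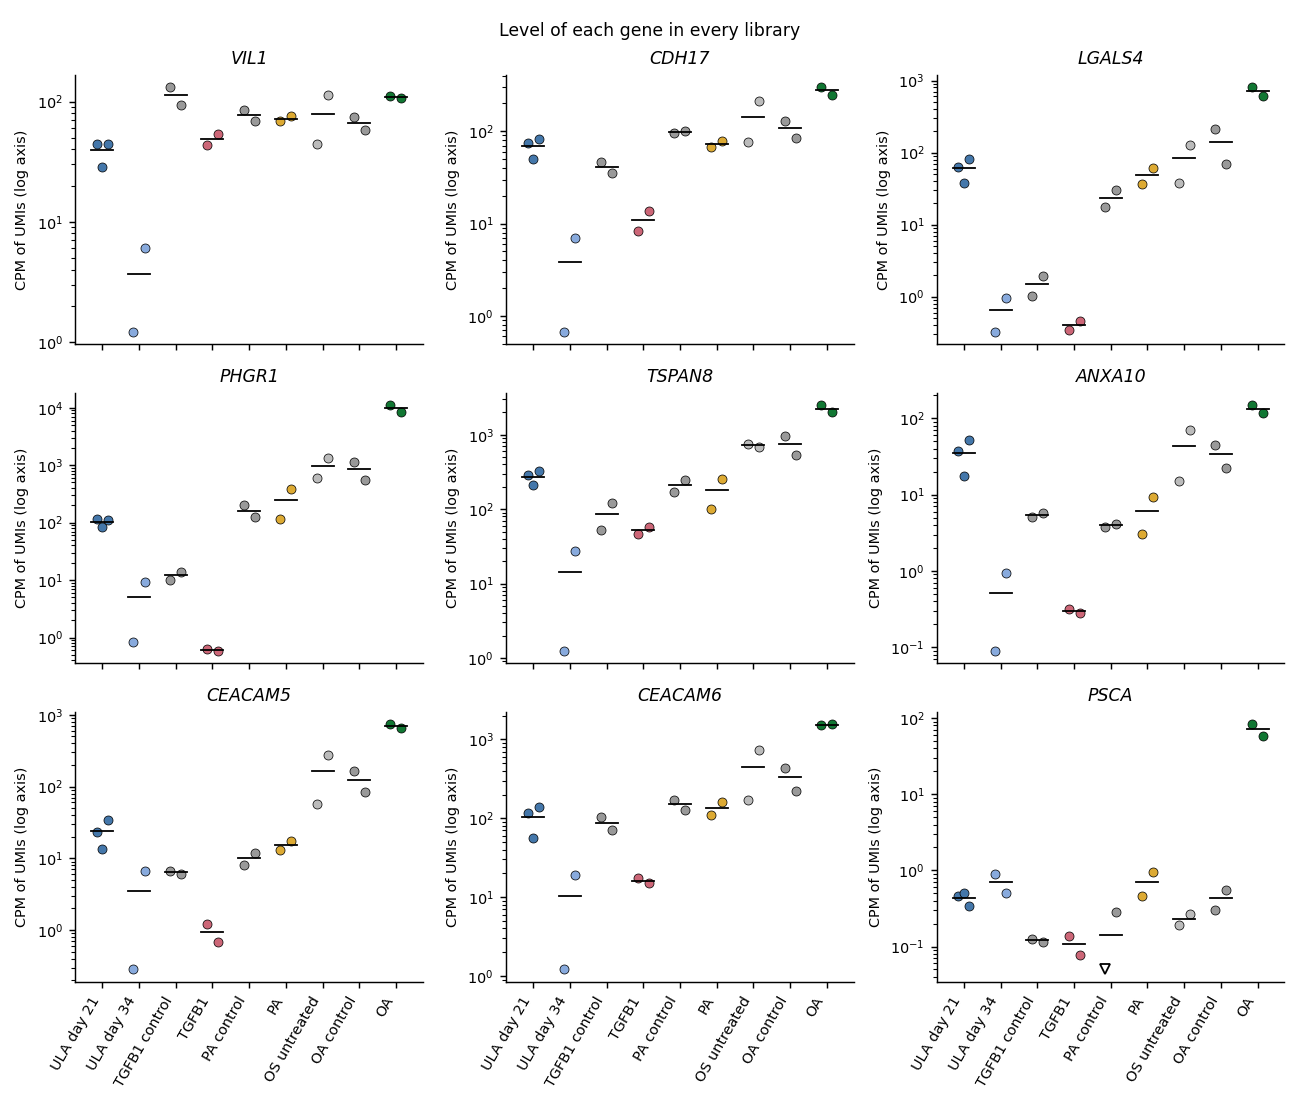
Level of each of the 9 genes in every library, in CPM of UMIs on a log axis, by group; each point is 1 library and each bar is the group mean. The open triangle marks the PA control library in which PSCA had 0 UMIs, drawn at an arbitrary height. The OA libraries stand above their controls in every panel, and the day 34 ULA libraries below day 21 in every panel but that of PSCA.

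VIL1, the microvillus actin bundler, was the steadiest of the 9 genes among the shaker groups. Its level was 44.3, 28.8 and 44.6 CPM in the day 21 ULA libraries and 1.21 and 6.09 CPM at day 34. It was 133 and 93.0 CPM in the TGFB1 controls against 43.8 and 54.0 CPM with TGFB1, and 85.8 and 69.4 CPM in the PA controls against 68.9 and 75.5 CPM with PA. In the OA experiment it was 74.9 and 58.0 CPM in the controls and 111 and 106 CPM with OA, and 43.95 and 113 CPM in the untreated group. The highest single value was therefore in a TGFB1 control library, and the OA values, although above their own controls, lay inside the range of the untreated group.

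The adhesion genes spread further. CDH17 (chr8:94127162-94217303, minus strand) was at 74.9, 50.2 and 82.7 CPM in the day 21 ULA libraries and at 0.668 and 6.95 CPM at day 34. In the shaker controls it was at 46.4 and 35.8 CPM (TGFB1 control), 96.4 and 100.4 CPM (PA control) and 130 and 85.3 CPM (OA control), with 76.3 and 212 CPM untreated. With treatment it stood at 8.27 and 13.9 CPM (TGFB1), 67.6 and 77.6 CPM (PA) and 303 and 250.1 CPM (OA). The OA libraries were above all others and the day 34 libraries below all others, and neither the TGFB1 nor the PA range overlapped its control.

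CEACAM5 was at 23.5, 13.3 and 34.3 CPM at day 21 and at 0.283 and 6.70 CPM at day 34. It was at 6.58 and 6.14 CPM in the TGFB1 controls against 1.20 and 0.689 CPM with TGFB1, at 8.14 and 11.9 CPM in the PA controls against 12.9 and 17.4 CPM with PA, and at 163 and 85.0 CPM in the OA controls against 741 and 646 CPM with OA. Untreated organoids had 56.4 and 276 CPM. The 3 shaker control groups did not overlap one another: CEACAM5 was lowest in the TGFB1 control and highest in the OA control.

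CEACAM6 was at 116, 56.1 and 137 CPM at day 21, and at 1.21 and 19.2 CPM at day 34. It was at 103 and 71.1 CPM in the TGFB1 controls against 17.3 and 15.1 CPM with TGFB1, and at 436 and 225 CPM in the OA controls against 1517 and 1564 CPM with OA. The PA libraries had 109 and 162.5 CPM beside controls at 171 and 128 CPM, and untreated organoids had 170.5 and 728 CPM. As for CEACAM5, replicate 2 of the untreated group was the higher of the pair.

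LGALS4, the brush border lectin, had the widest spread among the untreated and control shaker groups of the 8 genes other than PSCA. These groups come from experiments read with different software versions and gene lists. Experiment, software, gene list and culture cannot be told apart between them. Its level was 1.01 and 1.95 CPM in the TGFB1 controls, 17.4 and 30.1 CPM in the PA controls, 37.4 and 129 CPM in the untreated group and 213 and 69.7 CPM in the OA controls. It was at 0.341 and 0.459 CPM with TGFB1, at 36.3 and 60.7 CPM with PA, and at 818 and 614 CPM with OA. At day 21 on ULA plates it was at 63.9, 38.2 and 80.9 CPM, and at day 34 at 0.321 and 0.965 CPM. In none of these pairs did treated and control libraries overlap.

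TSPAN8, the tetraspanin, was at 286, 209 and 329.7 CPM at day 21 and at 1.25 and 27.6 CPM at day 34. In the shaker groups it was at 53.1 and 122 CPM (TGFB1 control), 46.6 and 57.3 CPM (TGFB1), 170.3 and 250.3 CPM (PA control) and 100.3 and 258 CPM (PA). Untreated organoids had 757 and 693 CPM, the OA controls 954 and 539 CPM, and the OA libraries 2482 and 2003 CPM. The TGFB1 and PA ranges each overlapped their control, whereas the OA range did not. TSPAN8 was also the gene for which the pair of untreated libraries lay closest together.

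PHGR1 covered the widest range across the shaker groups of the 8 genes other than PSCA. It was at 0.636 and 0.587 CPM with TGFB1, at 10.2 and 13.98 CPM in the TGFB1 controls, at 199 and 123 CPM in the PA controls and at 115 and 387 CPM with PA. It was at 601 and 1358 CPM untreated, at 1145 and 547 CPM in the OA controls, and at 10970 and 8558 CPM with OA. On ULA plates the level was 116, 83.6 and 112 CPM at day 21 and 0.822 and 9.21 CPM at day 34. The PA libraries spanned their controls.

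ANXA10, the gastric annexin, was at 37.4, 17.5 and 51.7 CPM at day 21 and at 0.0899 and 0.932 CPM at day 34. Its shaker values were 5.12 and 5.81 CPM in the TGFB1 controls against 0.318 and 0.281 CPM with TGFB1, and 3.78 and 4.15 CPM in the PA controls against 3.02 and 9.27 CPM with PA. They were 14.9 and 71.3 CPM untreated, 44.9 and 22.3 CPM in the OA controls and 147 and 118 CPM with OA. Day 21 ULA organoids thus had more ANXA10 than the TGFB1 and PA controls, and as much as the untreated and OA control groups, whose ranges they overlapped. The ULA and shaker groups differ in plate, day, digestion and the list of genes counted, which cannot be told apart here.

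PSCA (chr8:142670308-142682725, plus strand) stood apart. It was under 1 CPM in each of the 17 libraries outside the OA group, with 0 to 70 UMIs per library. The OA controls had 0.304 and 0.550 CPM (17 and 29 UMIs), and the OA libraries had 83.2 and 58.9 CPM (4497 and 3077 UMIs). In 1 PA control library no PSCA UMI was found, which allows up to 0.436 CPM at that depth, a floor of 3 counts that covers counting error only. The mean of the OA libraries was 166-fold that of their controls (71.0 ± 17.2 against 0.427 ± 0.174 CPM, SD, n = 2 each).

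The comparison of OA with its control asks what OA does to day 25 organoids. For all 9 genes the OA libraries were above the OA controls without overlap. Of the 19366 genes tested, 26.9% were higher and 54.5% lower without overlap in the same libraries, and edgeR called 21.7% higher and 21.6% lower at an adjusted p of 0.05. The fitted log2 fold changes (edgeR, UMIs summed per library) were 1.03 (SE 0.37) for VIL1, 1.68 (SE 0.42) for CDH17, 1.90 (SE 0.49) for TSPAN8, 2.29 (SE 0.63) for ANXA10 and 2.53 (SE 0.56) for CEACAM6. They were 2.64 (SE 0.62) for LGALS4, 2.79 (SE 0.59) for CEACAM5, 3.84 (SE 0.63) for PHGR1 and 7.72 (SE 0.42) for PSCA. At that threshold 9 of 9 were called higher. These are the values that chose the genes, so nothing is read from that count. All 9 passed the filter on low counts, which was applied over all 14 shaker libraries, or over the 5 ULA libraries, at once. PSCA, at 2 to 6 UMIs per library in the TGFB1 comparison, passed through libraries of other groups. Over all genes 4197 were called higher and 4181 lower, and 2628 and 5952 where libraries were scaled by their totals alone, which moved the median log2 fold change of all genes from -0.08 to -0.42. LGALS4 rested most on the choice of control library, at 3.78 without replicate 1 and 2.00 without replicate 2 of the OA control.

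The cell make-up of the OA libraries differed from that of their controls. Shares of marked cells, here and below, are shares of the cells with at least 1000 UMIs. Cells with mesenchymal markers were 31.4% and 33.1% of cells in the controls and 1.11% and 1.12% with OA, and all 7 mesenchymal markers fell, with their summed level going from 2401 to 3960 CPM down to 98.9 to 127 CPM and none of the 7 at 0. Of the hepatocyte markers 9 of 11 rose, with a median log2 fold change of 2.97 and a summed level of 9020 to 12500 CPM in the controls and 24160 to 25050 CPM with OA, where at most 1 was at 0. All 6 markers of dividing cells fell (median -1.14), from 315 to 352 CPM in sum to 102 to 115 CPM, with none at 0. Of the other marker lists, 3 of 6 neural, 2 of 5 pluripotency and 1 of 6 squamous markers fell. One of 6 ductal and 1 of 2 immune markers rose, and of 3 endothelial markers 1 rose and 1 fell. The part of these in the result was not tested. Cells with epithelial markers went from 27.4% and 25.5% to 68.2% and 62.2%. That class is defined by UMIs of EPCAM, CDH1 and 4 claudins, and 5 of these 6 genes were called higher with OA, so more such cells and more of these messages per cell cannot be told apart. Within epithelial-marked cells alone, the ratio of the OA to the control mean was 1.18-fold for VIL1, 1.83-fold for CDH17, 2.20-fold for TSPAN8, 2.86-fold for ANXA10, 3.30-fold for CEACAM6, 3.70-fold for LGALS4, 3.90-fold for CEACAM5, 7.70-fold for PHGR1 and 92.1-fold for PSCA, each smaller than over all cells. Over all cells the same ratios were 1.63, 2.57, 3.00, 3.95, 4.66, 5.06, 5.59, 11.5 and 166-fold.

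**Figure D2:**
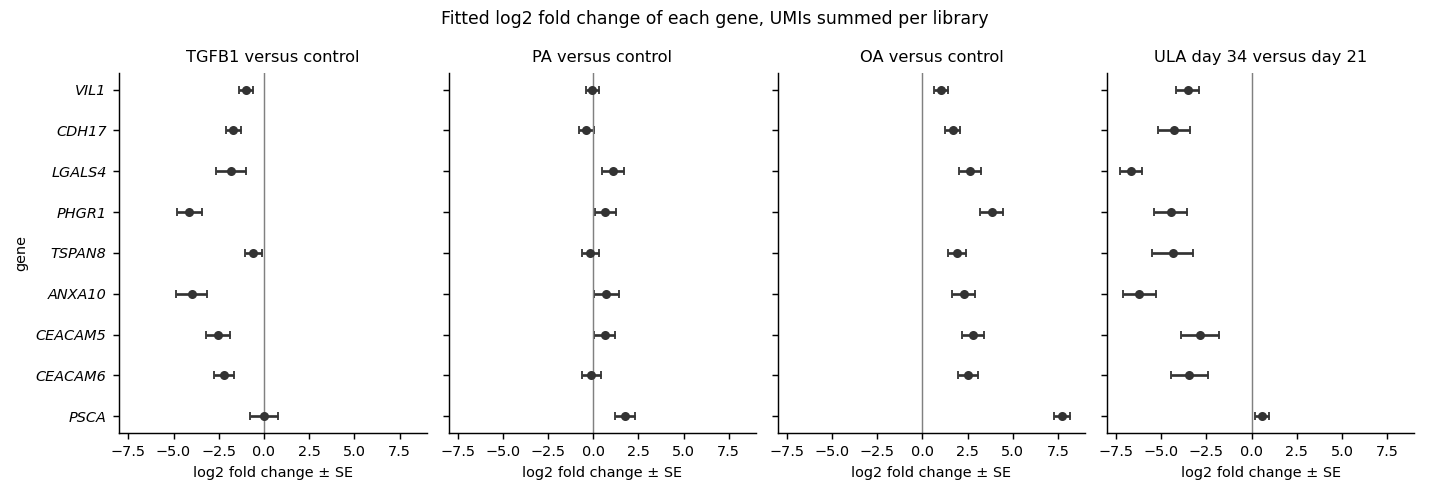
Fitted log2 fold change of each of the 9 genes (points) with its standard error (bars) in 4 comparisons of UMIs summed per library. With OA all 9 points are above 0, from 1.03 to 7.72. With TGFB1 and at day 34 the points of 8 genes are below 0 and that of PSCA is not. The PSCA point with TGFB1 rests on too few UMIs to be read.

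TGFB1 is a growth factor that drives fibrosis in liver, and this comparison asks what it does to the organoids. With TGFB1, 7 of the 9 genes were lower without overlap (VIL1, CDH17, LGALS4, PHGR1, ANXA10, CEACAM5 and CEACAM6), and TSPAN8 and PSCA overlapped their controls. Of all genes tested, 42% were lower and 23.7% higher without overlap in these libraries. The log2 fold changes ran from -0.60 (SE 0.48) for TSPAN8 and -0.99 (SE 0.37) for VIL1 to -4.00 (SE 0.84) for ANXA10 and -4.13 (SE 0.71) for PHGR1, with -1.69 (SE 0.43) for CDH17, -1.82 (SE 0.82) for LGALS4, -2.21 (SE 0.56) for CEACAM6 and -2.54 (SE 0.66) for CEACAM5. PSCA, at 2 to 6 UMIs per library, allows no comparison. For TSPAN8 the sign rested on 1 library: without replicate 2 of the control its log2 fold change was 0.28. edgeR called 5 of 9 lower, beside 11.3% of all genes called lower and 10.9% higher, again for values that chose the genes. Over all genes 2104 were called higher and 2191 lower, and 1415 and 3065 with library totals alone (median of all genes -0.05 and -0.24).

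Epithelial-marked cells made up 51.1% and 57.0% of cells in the controls and 68.1% and 67.2% with TGFB1. The class is defined by UMIs of EPCAM, CDH1 and claudins, and EPCAM, CDH1 and CLDN7 were called higher with TGFB1, so more such cells and more of these messages per cell cannot be told apart. In those cells PHGR1 was at 14.6 and 17.0 CPM in the controls and 0.839 and 0.429 CPM with TGFB1. ANXA10 was at 6.79 and 6.77 CPM against 0.387 and 0.351 CPM, and CEACAM6 at 149 and 87.3 CPM against 20.5 and 19.4 CPM. The ratio of control to TGFB1 means in these cells was 25.0-fold for PHGR1, 18.4-fold for ANXA10, 7.54-fold for CEACAM5, 5.90-fold for CEACAM6, 4.02-fold for CDH17, 3.69-fold for LGALS4 and 2.15-fold for VIL1. Mesenchymal-marked cells were 3.01% and 3.45% of cells in the controls and 7.22% and 8.97% with TGFB1, and 3 of 7 mesenchymal markers rose, with a summed level of 599 to 618 CPM in the controls and 1479 to 1837 CPM with TGFB1 and no marker at 0. All 6 markers of dividing cells fell (median -3.96), from 261 to 361 CPM in sum to 32.0 to 33.8 CPM, with none at 0. Of 11 hepatocyte markers 6 fell and 1 rose, with a median log2 fold change of -1.99 and a summed level of 2717 to 4003 CPM in the controls and 4569 to 5400 CPM with TGFB1, with at most 1 at 0. The part of these in the result was not tested.

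On ULA plates the 8 genes other than PSCA were lower at day 34 than at day 21 without overlap, and PSCA was higher without overlap. Of the 22257 genes tested, 19.4% were lower and 31.5% higher without overlap in the same libraries. With a stricter cell filter (at least 1000 genes and at most 10% mitochondrial counts) CEACAM5 overlapped. Within epithelial-marked cells alone the same 8 genes were lower without overlap. PSCA overlapped there, at 0.711, 0.960 and 0.594 CPM at day 21 and 1.71 and 0.540 CPM at day 34. The log2 fold changes were -2.88 (SE 1.06) for CEACAM5, -3.45 (SE 1.03) for CEACAM6, -3.54 (SE 0.65) for VIL1, -4.30 (SE 0.89) for CDH17, -4.37 (SE 1.14) for TSPAN8, -4.49 (SE 0.91) for PHGR1, -6.21 (SE 0.91) for ANXA10 and -6.67 (SE 0.59) for LGALS4. PSCA was 0.56 higher (SE 0.38), at levels under 1 CPM. edgeR called 6 of 9 lower, beside 7.18% of all genes called lower and 8.43% called higher, and nothing is read from that count. Over all genes 1876 were called higher and 1599 lower, and 2596 and 1303 with library totals alone (median of all genes 0.01 and 0.14).

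The day 34 libraries differed from each other as well as from day 21. Replicate 1 was below replicate 2 for each of these 8 genes. After cells were thinned to an equal depth, as described further on, only 2 epithelial-marked cells of replicate 1 had an AFP UMI. Its other epithelial-marked cells together held 37 AFP UMIs at full depth (5.31 CPM). Leaving out replicate 2 made the log2 fold change of each of the 8 genes larger in size: -5.17 for VIL1, -6.53 for CEACAM5, -6.56 for CEACAM6, -6.84 for CDH17, -7.12 for PHGR1, -7.71 for LGALS4, -7.93 for TSPAN8 and -8.75 for ANXA10. At the other end of the alternatives the falls were smaller: -1.95 for CEACAM5, -2.54 for CEACAM6, -2.81 for VIL1 and -3.44 for CDH17. They were -3.43 for TSPAN8, -3.62 for PHGR1, -5.32 for ANXA10 and -5.94 for LGALS4. All 6 squamous epithelial markers, such as KRT5 and TP63, were higher at day 34, with a summed level of 17.3 to 27.3 CPM at day 21 and 1523 to 3391 CPM at day 34, none at 0. Of 11 hepatocyte markers 6 fell (median -3.16), from 2359 to 2735 CPM in sum to 96.2 to 846.7 CPM. Of the markers of dividing cells 4 of 6 fell (median -1.10; 904 to 1015 CPM in sum against 414 to 584.5 CPM), and of the pluripotency markers 4 of 5 fell (median -2.66; 68.7 to 78.5 CPM against 23.3 to 61.7 CPM), with none of either list at 0. Epithelial-marked cells at day 34 were 8.501% and 18.9% of cells, beside 12.6% to 22.6% at day 21. Mesenchymal-marked cells were 46.6% and 17.9% in replicates 1 and 2 of day 34, beside 25.0% to 35.0% at day 21. The summed mesenchymal markers were at 3822 and 1591 CPM there, beside 1697 to 2160 CPM at day 21, and 1 of 7 rose. Of 6 ductal markers 1 rose, with a summed level of 1664 to 2167 CPM at day 21 and 3097 to 4285 CPM at day 34. Of 6 neural markers 1 rose, and of 5 endothelial markers 1 fell. The part of these in the result was not tested.

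PA gave no such picture. Between PA and its control 3 genes were higher without overlap (LGALS4, CEACAM5 and PSCA), CDH17 was lower without overlap, and 5 overlapped. Of all genes tested, 8.38% were higher and 14.6% lower without overlap in these libraries. The log2 fold changes were 1.08 (SE 0.61) for LGALS4, 0.64 (SE 0.58) for CEACAM5 and -0.38 (SE 0.41) for CDH17. PSCA, at 0 and 13 UMIs in the controls and 11 and 56 with PA, is too sparse for a fold. None of the 9 was called, beside 0.0465% of all genes, which is 9 genes. That count is at an adjusted p of 0.05, and 540 genes had an unadjusted p under 0.05. DESeq2 called 51 genes. Between OA controls and untreated organoids the log2 differences lay between -0.31 and 1.07 for the 9 genes. None of the 9 was called, beside 0.573% of all genes (0.0826% higher and 0.491% lower). Under the alternatives the differences ran from -1.05 to 2.18, and the sign turned for 8 of the 9 genes. PSCA was higher in the OA controls without overlap and the other 8 overlapped, beside 14.4% of all genes higher and 27.8% lower without overlap; with the stricter cell filter all 9 overlapped. By edgeR 111 genes were called there, with 2822 at an unadjusted p under 0.05. These 2 comparisons, OA with its control and that control with the untreated group, share the control libraries.

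Other genes of gut epithelium were read from lists of 65 further genes, none of them among the 9: brush border proteins, gastric surface proteins, mucus and secretory proteins, epithelial junctions, and gut transcription factors. The list names are loose and do not give the function of each gene. The mucus and secretory list includes the keratin KRT20, and the junction list the transcription factor ELF3. The brush border list includes the fatty acid binding protein FABP2 and the apolipoprotein APOA4. These lists, and that of the relatives below, were chosen with earlier results of these data known, so they are no independent check. With OA, 46 of the 63 that could be tested rose and 1 fell, beside 43.3% of all genes called in either direction, and their median log2 fold change was 1.84, beside -0.08 over all genes. All 20 brush border genes rose, with a median of 2.50. FABP2, the intestinal fatty acid binding protein, went from 10.8 ± 4.71 to 1411 ± 410 CPM (SD, n = 2 each; 7.35, SE 0.94, edgeR adjusted p = 5.55e-05). APOA4, an apolipoprotein of the small intestine, went from 36.2 ± 23.2 to 4190 ± 18.6 CPM (7.15, SE 1.24, edgeR adjusted p = 0.000511).

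Among gastric surface genes 6 of 8 rose with OA, with a median of 2.66. TFF2, a trefoil peptide of gastric mucus, went from 90.2 ± 18 to 2665 ± 438 CPM (5.23, SE 0.67, edgeR adjusted p = 5.85e-05). The gastric mucin MUC5AC also rose (5.71, SE 0.62, edgeR adjusted p = 1.75e-05), although its OA libraries differed widely, at 30.0 ± 27.3 CPM against 0.724 ± 0.238 CPM in the controls. Of the mucus and secretory genes 6 of 10 rose, led by KRT20, a keratin of mature gut surface cells, from 14.9 ± 5.37 to 1997 ± 202 CPM (7.38, SE 0.99, edgeR adjusted p = 7.85e-05), and by the membrane mucin MUC17 (5.04, SE 0.52, edgeR adjusted p = 1.28e-05). The hepatocyte markers rose and the markers of dividing cells fell in the same libraries, as given above, and their part in these results was not tested. Of 10 junction genes 9 rose, EPCAM by 1.92 and CLDN7 by 2.01, so that general epithelial genes were higher too, beside the larger share of epithelial-marked cells given above.

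The transcription factors moved less. With OA 5 of 15 rose (HNF4G, EHF, KLF5, ISX and CDX1), FOXA2 fell, and 9 did not pass, with a median of 0.77. HNF4G rose by 2.60 (SE 0.46, edgeR adjusted p = 0.000588) and EHF by 2.01 (SE 0.26, edgeR adjusted p = 6.76e-05). Without replicate 2 of the OA control, CDX1, ISX, KLF5 and FOXA2 lost their calls (adjusted p = 0.286, 0.108, 0.0689 and 0.0754). CDX1 also lost it without either OA library (0.151 and 0.0811) and FOXA2 without replicate 1 of OA (0.134). Without replicate 2 of the OA control 33 of the other gut genes were called in place of 47. Of the 17 OA results named in these paragraphs and the next on relatives, 12 kept their calls whichever library of these groups was left out.

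Of 24 relatives of the 9 genes, from the same families, 13 rose and 2 fell with OA, with a median of 1.13, beside 21.7% of all genes called higher, 21.6% called lower and a median of -0.08. CEACAM7, of the same family as CEACAM5 and CEACAM6, rose from 4.53 ± 3.55 to 305 ± 53.5 CPM (6.45, SE 0.54, edgeR adjusted p = 3.26e-06). LGALS1, a galectin of mesenchymal cells, was at 457 ± 208 CPM in the controls and 8.22 ± 1.24 CPM with OA, with a log2 fold change of -5.44 (edgeR adjusted p = 0.000148, SE 0.79), beside the fall of mesenchymal markers given above. LY6E also fell, by 0.90, but not without replicate 2 of the OA control (adjusted p = 0.0762) or either OA library (0.0921 and 0.0662).

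With TGFB1, 24 of the 63 other gut genes fell and 3 rose, beside 22.2% of all genes called, with a median of -1.13. Of the hepatocyte markers 6 of 11 fell as well, with a median of -1.99, and all 6 markers of dividing cells fell; their part in these results was not tested. Brush border genes fell in 10 of 20 cases and rose in none, with a median of -1.63. MEP1A, a brush border protease, fell by 4.49 (SE 0.79, edgeR adjusted p = 0.00142), and SI, sucrase-isomaltase, fell from 8.47 ± 0.54 to 0.417 ± 0.085 CPM (-4.13, SE 0.60, edgeR adjusted p = 0.00036). Of the mucus and secretory genes TFF3, MUC13, AGR3 and AGR2 fell. TFF3, the intestinal trefoil peptide, went from 192 ± 6.3 to 9.81 ± 0.87 CPM (-4.10, SE 0.47, edgeR adjusted p = 5.25e-05). The gastric genes VSIG1 and TFF2 fell (-5.05, SE 0.38, edgeR adjusted p = 3.08e-06, and -3.56, SE 0.64, edgeR adjusted p = 0.00175), and the other 6 tested did not pass.

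Gut transcription factors fell in 7 of 15 cases with TGFB1. FOXA2, an endoderm factor, fell by 3.35 (SE 0.34, edgeR adjusted p = 2.05e-05) and ISX, an intestinal homeobox factor, by 2.13 (SE 0.39, edgeR adjusted p = 0.00191). Of the 10 genes on the junction list CLDN7, EPCAM and CDH1 rose (1.40, 1.01 and 0.76). The transcription factor ELF3, also on that list, fell by 0.79 and 6 did not pass, with a median of 0.12 over the list. Without replicate 1 of TGFB1 none of these 4 passed (adjusted p = 0.061, 0.198, 0.137 and 0.159). EPCAM also lost its call without replicate 1 of the control (adjusted p = 0.213) or replicate 2 of TGFB1 (0.0651), CDH1 without the latter (0.0543), and ELF3 without replicate 2 of either group (0.219 and 0.169). Without replicate 2 of TGFB1 17 of the other gut genes were called in place of 27, without replicate 1 of TGFB1 18, and AGR2 lost its call (adjusted p = 0.0778).

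Among the relatives, TGFB1 lowered ANXA13, an annexin of the intestinal brush border, by 3.18 (SE 0.44, edgeR adjusted p = 0.000233), together with LGALS2, CEACAM7 and ANXA4. LGALS2 fell by 2.72 (SE 0.55, edgeR adjusted p = 0.00349) and did not pass without replicate 1 of TGFB1 (adjusted p = 0.0516). ANXA2, LGALS1, CEACAM1, TSPAN1 and GSN rose. Of these 9 results only ANXA13, ANXA4 and ANXA2 (2.09, SE 0.34, edgeR adjusted p = 0.00089) kept their calls in each fit with 1 library left out. The others lost them without at least 1 library of this comparison: LGALS1 without replicate 1 of the control or either TGFB1 library (adjusted p = 0.264, 0.153 and 0.114), GSN without the same libraries (0.127, 0.0787 and 0.112) and TSPAN1 without replicate 1 of either group (0.144 and 0.161). CEACAM7 lost its call without replicate 2 of the control or either TGFB1 library (0.0797, 0.0632 and 0.102), and CEACAM1 without any 1 of the 4 (0.131 to 0.185). CEACAM1 rose by 1.23 (edgeR adjusted p = 0.0497) while CEACAM7 fell by 1.89 (edgeR adjusted p = 0.0129), so relatives of CEACAM5 and CEACAM6 were called in both directions.

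At day 34 on ULA plates 32 of 59 other gut genes were lower than at day 21 and none was higher, beside 15.6% of all genes called. Hepatocyte, dividing-cell and pluripotency markers fell in the same libraries, as given above, and their part in these results was not tested. By list, the counts were 14 of 19 for the brush border, 9 of 15 for the transcription factors and 3 of 5 for gastric genes (TFF1, TFF2 and VSIG1). They were 4 of 10 for the mucus and secretory list (KRT20, MUC2, AGR2 and AGR3) and 2 of 10 for the junction list (EPCAM and CLDN3). CDX1, an intestinal homeobox factor, fell from 28.4 ± 8.57 (SD, n = 3) to 0.864 ± 0.531 CPM (SD, n = 2; -5.15, SE 0.49, edgeR adjusted p = 0.00174). KRT20 fell by 7.12 (SE 1.15, edgeR adjusted p = 0.00952), FABP2 by 6.11 (SE 1.11, edgeR adjusted p = 0.0138), TFF2 by 4.39 (SE 1.05, edgeR adjusted p = 0.0325) and EPCAM by 1.18 (SE 0.27, edgeR adjusted p = 0.0276). The count depended on the libraries: it was 12 without replicate 1 of day 21, 18 without replicate 2, 10 without replicate 3 and 51 without replicate 2 of day 34. Without replicate 3 of day 21 KRT20, FABP2, TFF2 and EPCAM had adjusted p = 0.0599, 0.0789, 0.127 and 0.103. Without replicate 1 FABP2, TFF2 and EPCAM had 0.0604, 0.114 and 0.124, and without replicate 2 TFF2 and EPCAM had 0.0957 and 0.0591. Among the 24 relatives 5 rose (LGALS1, LYPD3, ANXA1, GSN and LYNX1) and 6 fell. LGALS1 rose by 3.60 (SE 0.49, edgeR adjusted p = 0.00536; 0.0521 without replicate 3 of day 21). Of the 16 ULA results named here, 4 (CDX1, MUC2, AGR3 and LYPD3) kept their calls whichever library was left out, and the other 12 lost them without at least 1 of the day 21 libraries.

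With PA none of the 63 other gut genes and none of the 24 relatives was called. Between OA control and untreated organoids DPP4, a brush border peptidase, and MUC13, a membrane mucin, were lower (-1.35 and -1.45, edgeR adjusted p = 0.0472 and 0.0415). Neither passed when any 1 of the 4 libraries was left out, with adjusted p from 0.0652 to 0.39 for DPP4 and from 0.0551 to 0.39 for MUC13. Genes named here because few of their list were called were chosen after their values were seen.

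Next, the genes were read cell by cell together with AFP. Every cell with at least 1000 UMIs was thinned to 1000, and shallower cells were left out. These numbered 31, 36 and 117 at day 21, 9 and 79 at day 34, 2927 of 9615 and 190 of 8505 in the TGFB1 controls and 127 and 101 with TGFB1. They numbered 361 of 3205 and 424 of 5742 in the PA controls, 526 and 234 with PA, 375 and 691 in the untreated group, 247 and 102 in the OA controls and 119 and 104 with OA. A cell was called epithelial-marked with at least 2 UMIs over EPCAM, CDH1 and 4 claudins and under 3 over 7 collagen and stromal genes, and mesenchymal-marked with at least 3 UMIs over the latter and none over the former. The mesenchymal-marked cells should lack these genes. Since they were taken with no UMI of the epithelial markers, droplets with the most free epithelial RNA are left out of them, and the background they give can be too low. In 18 libraries there were 83 to 1486 epithelial-marked cells with an AFP UMI and 512 to 4197 without. The median depth before thinning was between 1592 and 20260 UMIs for cells with AFP (median over libraries 7578), between 1595 and 19060 without (6841), and between 1678 and 13350 for mesenchymal-marked cells (6320). Replicate 1 of day 34 had 2 cells with AFP and is left out here.

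Cells with AFP had the gut genes more often than cells without. This held in 18 of 18 libraries for VIL1, CDH17, PHGR1, TSPAN8, CEACAM5 and CEACAM6, in 16 of 18 for LGALS4 and ANXA10, and in 6 of 18 for PSCA, which had no UMI in either class in most libraries. These counts include libraries near the floor. The lowest share with AFP was 0.265% for PHGR1, 0.980% for CEACAM5 and 0 for LGALS4 and ANXA10, and shares under 1% are read as background below. Over all 162 pairs of a gene and a library the share was higher with AFP in 146, with ties counted as not higher. The 9 genes were read in the same cells and chosen in part by this detection, so the pairs are not separate observations. The median share over libraries was 33.7% with AFP and 9.64% without for TSPAN8, 19.1% and 6.43% for CEACAM6, 16.4% and 4.66% for PHGR1, 15.2% and 5.33% for CDH17, and 10.2% and 7.16% for VIL1. It was 6.65% and 2.18% for LGALS4, 4.26% and 0.82% for CEACAM5, and 2.18% and 0.738% for ANXA10. In mesenchymal-marked cells the median share was between 0 and 0.849% for all 9.

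**Figure D3:**
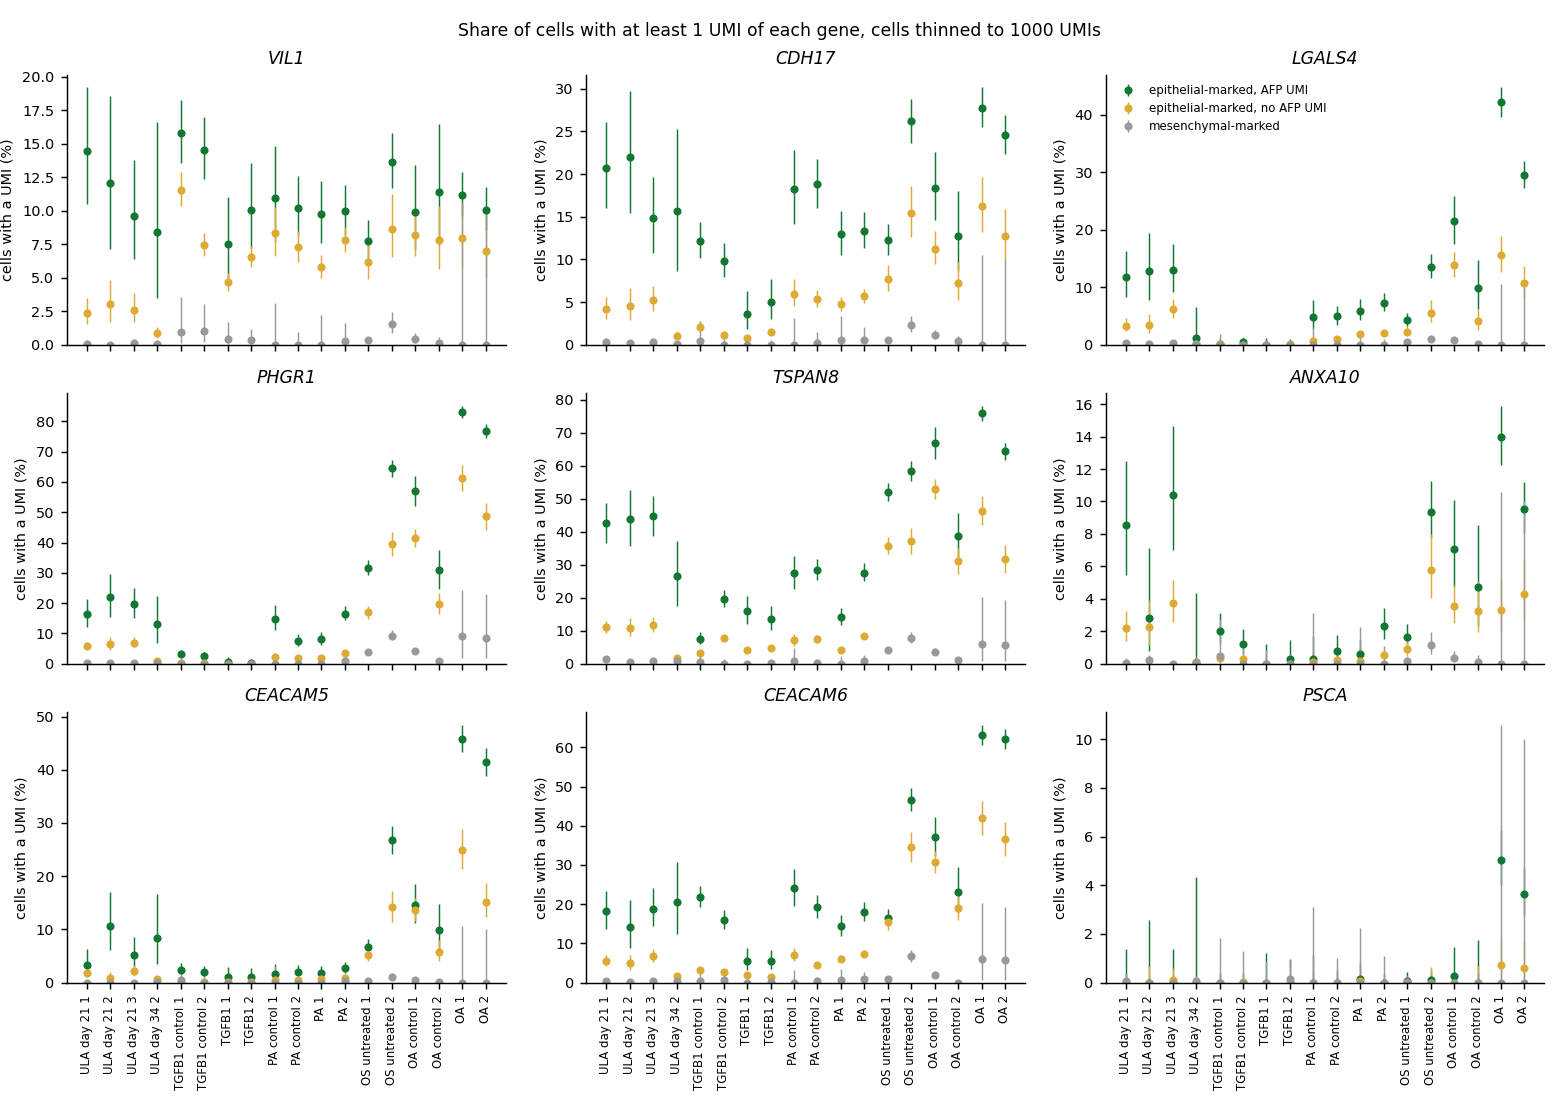
Share of cells with at least 1 UMI of each gene (percent, with exact 95% binomial intervals that cover counting error only) in each of 18 libraries, after thinning to 1000 UMIs. Green points are epithelial-marked cells with an AFP UMI, yellow points those without, and grey points mesenchymal-marked cells; green lies above yellow in every library for VIL1, CDH17, PHGR1, TSPAN8, CEACAM5 and CEACAM6.

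In the OA libraries, PHGR1 had a UMI in 83.1% (95% exact interval 81.1 to 85.0%) and 76.8% (74.5 to 79.0%) of cells with AFP, and in 61.4% and 48.6% of those without. The mesenchymal-marked cells there numbered only 33 and 35, and 9.09% and 8.57% of them had a PHGR1 UMI, at median depths of 6641 and 7331 UMIs beside 12680 and 9524 for the cells with AFP. TSPAN8 was found in 75.9% and 64.4% with AFP against 46.4% and 31.6% without, and CEACAM6 in 63.3% and 62.1% against 42.0% and 36.5%. LGALS4 was in 42.2% and 29.6% against 15.5% and 10.7%. PSCA was in 5.05% and 3.64% of cells with AFP and in 0.739% and 0.586% of those without. So in OA organoids most cells with AFP also held PHGR1, TSPAN8 and CEACAM6 messages, and few held PSCA at this depth.

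Low levels were read in the same way. With TGFB1, CEACAM6 was in 5.56% of AFP cells of both libraries and in 1.84% and 1.48% of the others, and TSPAN8 in 16.0% and 13.5% against 4.09% and 4.76%. After thinning, no LGALS4 UMI was left in the 306 and 378 cells with AFP of these libraries, which at full depth held 5 and 0 of them (2.23 and 0 CPM). At day 21 on ULA plates TSPAN8 was in 42.6%, 43.97% and 44.8% of cells with AFP and in 10.98%, 10.96% and 11.8% of those without. In replicate 2 of day 34, where AFP cells were rare, TSPAN8 was in 26.5% of the 83 cells with AFP and in 1.64% of those without.

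Free RNA in the droplets limits what the low shares show. In untreated replicate 2 PHGR1 was found in 9.29%, TSPAN8 in 7.86%, CEACAM6 in 6.70% and AFP itself in 15.3% of mesenchymal-marked cells. The shares in epithelial-marked cells of that library were 64.6% and 39.5% for PHGR1 with and without AFP. Shares under 1%, as for PSCA outside OA, are read as background. The part of free RNA in the difference between cells with and without AFP was not tested.

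The summed level was read in the same cells and AFP classes as the shares, so it is no separate support for them. The classes were set in thinned cells, and the sums were taken at full depth. Cells without AFP after thinning therefore still held AFP, at 177 CPM in replicate 1 of day 21 and 511 CPM in replicate 1 of OA. Cells with AFP held 1467 and 7582 CPM there. Among libraries with at least 20 UMIs of a gene in both classes, the CPM in cells with AFP over the CPM in cells without was above 1 in 18 of 18 libraries for VIL1 (median ratio 1.49, from 1.18 to 6.41), CDH17 (2.69, from 1.32 to 13), TSPAN8 (2.70, from 1.29 to 15.1) and CEACAM6 (2.67, from 1.06 to 15.3). It was above 1 in 15 of 15 for PHGR1 (median 2.88), 14 of 14 for CEACAM5 (2.31), 13 of 13 for LGALS4 (2.63) and 12 of 12 for ANXA10 (2.55). The median ratio was lowest for VIL1 among these 8, but not in each library: in replicate 3 of day 21 VIL1 had the highest of the 8 ratios (2.45, beside 1.65 to 2.24).

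Read the other way, cells with a gut gene held AFP more often than epithelial-marked cells did in general. This follows from the shares above, in the same cells, and adds no support to them. At day 21 AFP was in 20.4%, 21.0% and 22.9% of all epithelial-marked cells, and in 49.8% of the TSPAN8 cells of replicate 1. With OA it was in 73.3% and 73.6% of all epithelial-marked cells, in 78.8% and 81.5% of PHGR1 cells and in 88.2% and 88.5% of LGALS4 cells, so the excess there was small for PHGR1. Over whole libraries AFP was at 2352 and 2220 CPM untreated and 455 and 503 CPM in the OA controls.

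Many cells held several of the 9 genes. With OA, at least 3 were found in 76.0% and 66.0% of cells with AFP and in 44.2% and 30.3% of those without, with a median of 4 genes per AFP cell in both libraries. In the OA controls at least 3 were found in 47.9% and 21.8% of cells with AFP. With TGFB1 that share was 0.654% and 0.794%, beside 4.75% and 3.88% in its controls. At day 21 it was 23.3%, 24.8% and 22.6%, and in mesenchymal-marked cells of those libraries it was 0.

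**Figure D4:**
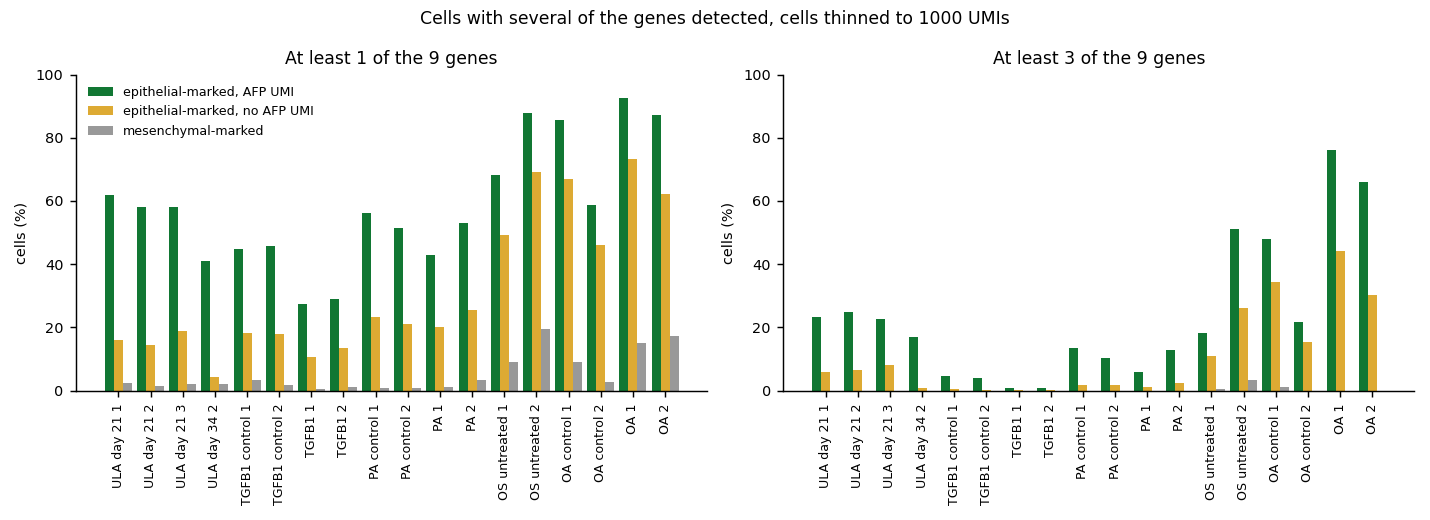
Percent of cells with at least 1 (left) and at least 3 (right) of the 9 genes in 18 libraries, after thinning to 1000 UMIs, for epithelial-marked cells with AFP (green), without AFP (yellow) and mesenchymal-marked cells (grey). With OA, 76.0% and 66.0% of cells with AFP hold at least 3 of the genes, and with TGFB1 0.654% and 0.794% do.

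In most libraries pairs of the genes were found in the same epithelial-marked cell more often than their separate shares would give. PHGR1 and TSPAN8 had a ratio of observed to expected cells above 1 in 13 of 13 libraries with enough cells (median 4.15, from 1.18 to 5.48). So did CEACAM5 and CEACAM6 in 7 of 7 (median 2.09, from 1.41 to 5.35), a pair of paralogs whose reads may have been given to the wrong gene. The ratio is bounded where a gene is common, as with OA: there PHGR1 and TSPAN8 were together in 1261 cells where 1066 would be given by the separate shares. For VIL1 the median ratio was 1.25 with PHGR1 and 1.31 with TSPAN8, and it was above 1 in 9 of 11 libraries with PHGR1, 16 of 17 with TSPAN8, 13 of 14 with CEACAM6 and 4 of 5 with CEACAM5.

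Which other markers the cells held was read in the same way. AGR2, a secretory protein of gut and stomach epithelium, was more frequent in cells with the gene than without in 18 of 18 libraries for TSPAN8 and CEACAM6 (median 54.8% against 24.3%, and 61.4% against 25.5%) and in 16 of 16 for PHGR1, 14 of 14 for CEACAM5, 13 of 13 for LGALS4, 11 of 11 for ANXA10, 17 of 18 for CDH17 and 15 of 18 for VIL1. KRT20 was more frequent in 13 of 13 libraries for LGALS4 (median 10.4% against 0.642%) and in 15 of 16 for PHGR1 (6.87% against 0.261%). It was more frequent in 15 of 18 for CDH17, TSPAN8 and CEACAM6, 9 of 11 for ANXA10, 10 of 14 for CEACAM5 and 10 of 18 for VIL1 (1.42% against 0.706%). KRT7, a keratin of bile ducts, was more frequent in cells with the gene in 1 of 11 libraries for ANXA10, 3 of 13 for LGALS4, 6 of 18 for VIL1 and CDH17, 6 of 16 for PHGR1, 6 of 14 for CEACAM5, 8 of 18 for TSPAN8 and 9 of 18 for CEACAM6. MKI67, a marker of dividing cells, was more frequent in 3 of 18 for CEACAM6, 4 of 18 for CDH17, 3 of 11 for ANXA10, 4 of 14 for CEACAM5, 6 of 18 for VIL1 and TSPAN8, 6 of 16 for PHGR1 and 6 of 13 for LGALS4. The transcription factor CDX2 was more frequent in 18 of 18 libraries (TSPAN8), 17 of 18 (CDH17 and CEACAM6) and 16 of 16 (PHGR1). For the others it was 13 of 18 (VIL1), 11 of 13 (LGALS4), 9 of 11 (ANXA10) and 9 of 14 (CEACAM5). HNF4A was more frequent in 18 of 18 (TSPAN8), 17 of 18 (CEACAM6), 16 of 18 (CDH17) and 16 of 16 (PHGR1). It was so in 12 of 18 (VIL1), 12 of 13 (LGALS4), 13 of 14 (CEACAM5) and 7 of 11 (ANXA10). PSCA could be read in this way only in the 2 OA libraries. There AGR2 and KRT20 were more frequent in both, KRT7, CDX2 and HNF4A in 1 each, and MKI67 in neither. In the pair of OA libraries, KRT20 was in 78.1% of PSCA cells and 55.0% of the other epithelial-marked cells (medians). CDX2 was in 3.99% against 5.11% and HNF4A in 7.71% against 8.32%.

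Across the 19 libraries the levels of most of the genes were alike. The Pearson correlation of log2(CPM + 1) was 0.97 between CDH17 and CEACAM6, 0.96 between LGALS4 and PHGR1, 0.95 between PHGR1 and CEACAM5 and 0.92 between CEACAM5 and CEACAM6. For VIL1 it ran from 0.48 with LGALS4 to 0.82 with CDH17, leaving PSCA aside, and for PSCA from 0.19 with VIL1 to 0.64 with CEACAM5. These describe the 19 libraries, which share experiments and differ in depth, and no p is given for them.

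**Figure D5:**
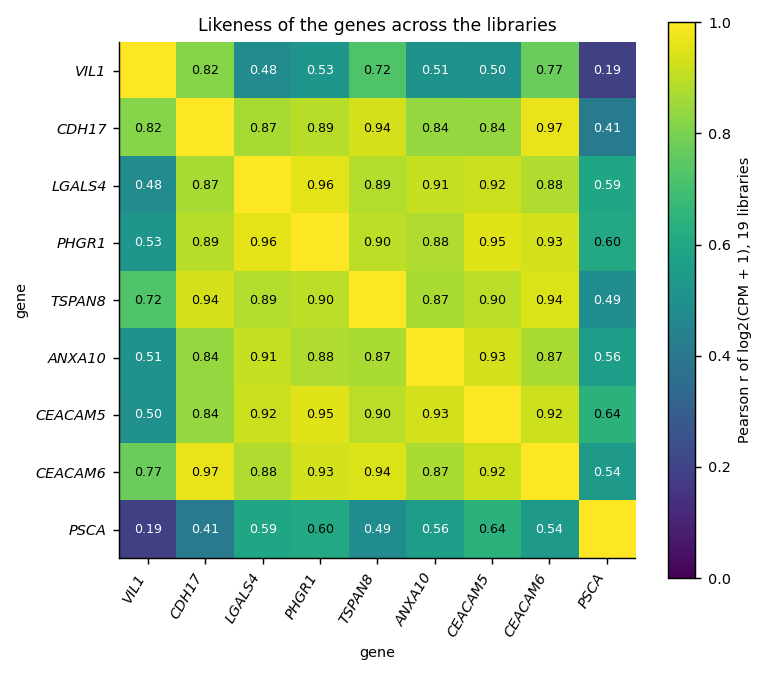
Pearson r of log2(CPM + 1) between each pair of the 9 genes over 19 libraries, from 0 (dark) to 1 (light). CDH17, LGALS4, PHGR1, TSPAN8, ANXA10, CEACAM5 and CEACAM6 form a block at 0.84 and above, and VIL1 and PSCA stand outside it.

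Among 11137 genes with a mean of at least 5 CPM, those most like each of the 9 were named by a fixed rule. ANXA10 was most like GUCY2C, the intestinal guanylin receptor (r = 0.98), and CDX1 (0.97). CDH17 was most like GPX3 and AGR2 (both 0.98), and CEACAM6 like TMPRSS4 (0.98) and AGR2 (0.97). PHGR1 was most like PLA2G12B (0.97) and MOGAT3 (0.96), CEACAM5 like MOGAT3 (0.97) and RBP2 (0.96), an intestinal retinol carrier, and VIL1 like MISP (0.97), itself a brush border protein, and HNF4A (0.96). LGALS4 was most like APOM (0.96) and DHRS11 (0.95), TSPAN8 like GLTPD2 (0.95) and AGR2 (0.94), and PSCA like DHRS9 (0.95) and FABP6 (0.94). For PSCA the rank correlations were only 0.61 for both, since its level rests on the pair of OA libraries. The mean of the 9 separate correlations was highest for NOSTRIN, TMPRSS4, PLA2G12B, SULT1B1 and TFF1, at 0.86 to 0.87.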

How the data were processed

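UMI counts per gene and cell, made with the 10x 3′ v3 assay, were used as deposited. Per the submitters' processing notes, reads were processed with bcl2fastq, Cell Ranger 3.0.2 and Scanpy on GRCh38. The software version is 3.0.2 in the ULA, TGFB1 and PA matrices and 6.0.2 in the others, per the file headers. The gene lists differed as well. The ULA matrices list 58721 genes, those of TGFB1, PA and their controls 33538, and those of the untreated, OA control and OA groups 36601. Counts of cells with 500 genes or more and no more than 20% mitochondrial counts were summed per library, without doublet removal. Groups were compared with edgeR 4.0.16 (quasi-likelihood test, TMM, Benjamini-Hochberg, adjusted p under 0.05; R 4.3.3) over the 14 shaker libraries or the 5 ULA libraries, and cells were handled with scanpy 1.11.5. On simulated counts the test recovered 172 of 200 changed genes in the TGFB1 design (18592 genes, 9 false calls) and 183 of 200 in the ULA design (21815 genes, 3 false calls). Each changed gene was moved up or down by 2 on the log2 scale, with the dispersion fixed at 0.05 for all genes. The spread of the real libraries was not used, so these counts do not give the recovery or false calls of the comparisons above. The 9 genes and all lists were chosen with earlier results of these data known. By rule the text names, from each gut list and from the relatives, the 2 called genes with the largest fold change for OA and for TGFB1 and 1 for PA and ULA, and for each of the 9 the 2 most correlated genes (and the 5 with the highest mean of the 9 correlations). Alternatives were library totals, no filter, DESeq2 1.42.0, a replicate block, a stricter cell filter (1000 genes, 10% mitochondrial), removal of the cells with the highest doublet scores (0.8% per 1000 barcodes), other thinning depths, and leaving out each library.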

Additional observations from a re-analysis of the deposited data

How the results depend on the processing

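The direction of the fold change of the 9 genes with OA was the same under each alternative, from 0.70 to 1.32 for VIL1 and from 7.37 to 8.11 for PSCA. Of 459 alternative values for the 9 genes 49 moved by more than their standard error. For OA, 5171 to 6570 genes were called with 1 library left out, and 33 to 49 other gut genes. For TGFB1 the same ranges were 1704 to 5554 and 17 to 28, and for ULA day 34 against day 21 they were 697 to 7165 and 10 to 51. For PA 17 genes were called with library totals, 162 with no filter, 51 by DESeq2 and 0 to 20 with 1 library left out, in place of 9, and 5 other gut genes with no filter in place of 0. For OA control against untreated 255 genes were called with library totals, 523 with no filter, 701 by DESeq2 and 0 to 164 with 1 library left out, in place of 111. The other gut genes called there numbered 4, 18, 6 and 0 to 2 under the same alternatives and 1 with the stricter cell filter, in place of 2. Same-numbered libraries did not deviate together (correlations from -0.44 to 0.089), so the numbers were not taken as pairs. With a replicate block 5 genes were called for PA, 5 genes and 0 other gut genes for OA control against untreated, and 0 genes and 0 other gut genes for ULA. The cause of these shifts was not tested. The share of gene and library pairs higher in cells with AFP was 146 of 162, 152 with 2000 UMIs per cell, 156 without thinning, 146 with doublets removed, and 114 of 126 with AFP called at 3 UMIs. As said above, these pairs are not separate observations. PSCA was sparse outside OA, where no library held more than 70 of its UMIs, so its folds there are uncertain. Library depth was similar in the OA experiment: replicate 1 of the OA control held 17 PSCA UMIs among 55842959, and replicate 2 of OA held 3077 among 52253697.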
